A study of Homo sapiens with 6 samples.

Results

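Proteasome genes were examined in COV434 cells with and without BRG1 reexpression. They were chosen by symbol, as the rows of the count table named PSMA to PSMG followed by a number, which gave 48 of 19899 genes. PSMB8, PSMB9, PSMB10, PSME1 and PSME2 were treated as immunoproteasome genes, and the 43 other members were used as the contrast. COV434 is an established human ovarian cell line, first described as a granulosa cell tumour line and grouped in the study with its SCCOHT lines, from a rare small cell ovarian cancer that lacks BRG1 protein. SMARCA4 encodes BRG1, the motor subunit of SWI/SNF complexes, which move nucleosomes. Control cells (n = 3) received pCDNA3-neo and BRG1 cells (n = 3) received PBJ5-BRG1, and both groups also received pBABE-puro, which carries puromycin resistance, at plasmid ratios between 10 and 6.25 to 1. Both groups were kept on puromycin at 2 to 3 µg/ml for 3 days from 24 h after transfection, so that every sample is from a transfected and drug-selected culture of a single line, and the BRG1 is expressed from a plasmid.

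The proteasome degrades proteins tagged with ubiquitin. Its 20S core is a stack of rings made of alpha subunits (PSMA genes), which gate the entrance, and beta subunits (PSMB genes), some of which cut peptide bonds. The 19S cap, made of ATPases (PSMC genes) and other subunits (PSMD genes), recognises, unfolds and feeds in the substrate. Interferons are known to induce PSMB8, PSMB9 and PSMB10, whose products replace the constitutive cutting subunits PSMB5, PSMB6 and PSMB7 in newly made particles. They also induce PSME1 and PSME2, which together form the PA28 activator, another cap of the core. Particles of this kind, immunoproteasomes, change the peptides that are cut for display on MHC class I.

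The libraries held 29699759 to 63613736 estimated counts, and the proteasome genes together took between 0.519% and 0.577% of them, with overlapping ranges in Control and BRG1. SMARCA4 was at 1439 to 1676 normalised counts in Control and 78589 to 108655 in BRG1 samples, plasmid transcripts included. Normalised counts here are estimated counts divided by the sample's DESeq2 size factor. Of 12 markers of immune cells, 5 had 3 counts or fewer in every sample, among them CD3D and CD2 with no count. None of the 6 tested was called, where 11.0% of all genes tested were called higher and 1.84% lower. At few counts, CSF1R (4, 0 and 1 against 10, 15 and 4) and LAPTM5 (3, 0 and 0 against 6, 9 and 8) were higher without overlap. NKG7 (3, 3 and 11 against 4, 1 and 1) was lower once normalised. The summed level of the 12 was 359 to 690 normalised counts in Control and 389 to 769 in BRG1 samples, nearly all of it PTPRC. Of 7 granulosa cell markers, FOXL2, FSHR and AMHR2 had 3 counts or fewer in every sample. Of the 4 tested, CYP19A1 and INHBA were called higher with BRG1, against 11.0% of all genes tested. INHA (log2 fold change -0.14) and AMH (0.46, DESeq2 adjusted p 0.373) were not called. The summed level of the 7 was 399.6 to 532 normalised counts in Control and 948 to 2063 in BRG1 samples, and its part in the results below was not tested.

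The promoters of the immunoproteasome genes were read first. These genes were grouped as known interferon-induced genes, so a match to an interferon element is not independent of how they were chosen. RefSeq windows (GRCh38.p14) from 250 bases before to 50 bases after a start site were matched by symbol for 42 of the 48 members. The letters searched on both strands were the core of the interferon-stimulated response element (ISRE), taken as GAAA, any 2 bases and GAAA again, and the gamma-interferon activated site (GAS), TTCNNNGAA. In the windows below, given 5′ to 3′ on the gene's strand, capitals mark matches to either motif, which can be written as the reverse complement. The PSMB8 window is chr6:32843998-32844297 on the minus strand, PSMB9 is chr6:32853942-32854241 on the plus strand, PSMB10 is chr16:67936801-67937100 on the minus strand, PSME1 is chr14:24135944-24136243 on the plus strand and PSME2 is chr14:24146561-24146860 on the minus strand. TAP1, a peptide transporter gene whose start site lies 488 bases from that of PSMB9 and which points the other way, is shown with chr6:32853655-32853954 on the minus strand.
PSMB8: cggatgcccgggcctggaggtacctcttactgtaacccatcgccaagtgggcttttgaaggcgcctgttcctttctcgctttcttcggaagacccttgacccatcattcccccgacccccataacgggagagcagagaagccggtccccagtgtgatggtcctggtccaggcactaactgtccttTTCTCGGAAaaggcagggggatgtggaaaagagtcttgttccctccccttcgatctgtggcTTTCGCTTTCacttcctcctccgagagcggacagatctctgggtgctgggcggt
PSMB9: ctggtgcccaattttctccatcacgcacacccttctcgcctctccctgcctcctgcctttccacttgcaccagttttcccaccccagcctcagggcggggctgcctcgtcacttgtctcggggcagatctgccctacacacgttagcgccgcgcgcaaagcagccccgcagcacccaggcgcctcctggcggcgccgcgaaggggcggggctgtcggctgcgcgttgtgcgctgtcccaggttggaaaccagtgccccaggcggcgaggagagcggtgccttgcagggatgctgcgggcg
TAP1: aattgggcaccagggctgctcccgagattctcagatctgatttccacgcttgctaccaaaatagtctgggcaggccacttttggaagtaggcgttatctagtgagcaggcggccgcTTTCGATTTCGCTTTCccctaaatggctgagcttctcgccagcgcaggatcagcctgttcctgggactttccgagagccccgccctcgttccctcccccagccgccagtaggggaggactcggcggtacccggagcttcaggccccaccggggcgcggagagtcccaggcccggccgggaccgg
PSMB10: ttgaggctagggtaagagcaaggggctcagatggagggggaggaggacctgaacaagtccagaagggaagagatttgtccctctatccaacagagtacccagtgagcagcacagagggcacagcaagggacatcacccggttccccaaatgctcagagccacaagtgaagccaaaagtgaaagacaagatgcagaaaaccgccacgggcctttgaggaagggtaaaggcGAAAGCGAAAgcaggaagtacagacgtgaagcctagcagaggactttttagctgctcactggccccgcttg
PSME1: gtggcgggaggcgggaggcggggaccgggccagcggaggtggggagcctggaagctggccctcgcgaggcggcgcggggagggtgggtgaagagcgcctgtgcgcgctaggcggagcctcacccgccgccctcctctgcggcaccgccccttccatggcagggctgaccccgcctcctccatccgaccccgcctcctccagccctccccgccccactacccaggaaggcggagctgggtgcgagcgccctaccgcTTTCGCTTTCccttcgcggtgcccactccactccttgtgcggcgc
PSME2: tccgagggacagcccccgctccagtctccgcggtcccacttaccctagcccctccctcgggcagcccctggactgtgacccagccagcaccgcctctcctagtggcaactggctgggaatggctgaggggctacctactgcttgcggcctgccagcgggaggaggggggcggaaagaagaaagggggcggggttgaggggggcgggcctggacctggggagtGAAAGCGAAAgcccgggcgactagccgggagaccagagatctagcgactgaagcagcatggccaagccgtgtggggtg

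The ISRE core was found in 4 of the 5 immunoproteasome genes, PSMB8, PSMB10, PSME1 and PSME2, and in 3 of 37 other members with a window (PSMA4, PSMB4 and PSMG4). It occurred in 3.57% of all 35116 windows and, since a gene can have several, in 4.38% of the 27305 genes with a window. All 4 genes held the same letters, GAAAGCGAAA on one strand or the other, which occurred in 0.0997% of all windows and 0.125% of genes, and PSMG4 was the only other member with them. Counted from the start site, the match began at -4 in PSMB8, -21 in PSMB10, -28 in PSME2 and 6 in PSME1. The PSMB9 window held no match to either motif, whereas the window of TAP1, which overlaps its far end, held overlapping ISRE matches at -134 and -128. A GAS match was present in PSMB8 and in 7 of the 37 others, against 7.66% of all windows and 9.38% of genes. PSMB8 and TAP1 each have a second window, at other start sites, chr6:32844630-32844929 and chr6:32852712-32853011, of which the former held no match to either motif and the latter a GAS match. Letters of other factors known at proteasome promoters were also counted. The CCAAT box was present in PSMB9 alone of the 5 and in 19 of the 37 others (34.6% of all windows, 39.7% of genes). The core of the antioxidant response element, TGACNNNGC, was present in PSMB9, PSME1 and PSME2 and in 12 of the 37 (13.3% of all windows, 16.1% of genes), and the AP-1 letters TGANTCA in 0 of the 5 and 3 of the 37 (7.71% of all windows, 9.37% of genes). These matches are descriptions of letters and not of binding.

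Whether immunoproteasome genes changed with BRG1 was tested with the fit across all genes. All 5 were called higher by DESeq2 at an adjusted p under 0.05, against 11.0% of the 16002 genes tested, and 4 of 5 by edgeR, against 9.57%. None was lower. With the replicate block 4 were called higher by DESeq2 (13.4% of genes tested) and 5 by edgeR (13.9%). Their median log2 fold change was 0.94, and that of all genes tested was -0.01. In all 5, the lowest BRG1 sample was above the highest Control sample, a pattern found for higher values in 16.7% of genes tested. RNA of whole cultures was measured, in which a change in the number of expressing cells cannot be told apart from a change in RNA per cell.

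PSMB9 (chromosome 6, 32844136 to 32859851, GRCh38), which encodes the induced counterpart of the caspase-like subunit PSMB6, changed the most. It was at 380.1, 403 and 273 normalised counts in Control samples 1 to 3 and at 2244, 2201 and 1734 in BRG1 samples 1 to 3. The groups were far apart, and sample 3 was the lowest of each. The fold was 5.87 (log2 fold change 2.55, SE 0.22, DESeq2 adjusted p 4.2e-30, edgeR adjusted p 0.00022), and it was 5.90, 5.46 and 6.36 within replicates 1, 2 and 3.

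PSMB8 (chromosome 6, 32840717 to 32844679), which encodes the induced counterpart of the chymotrypsin-like subunit PSMB5, lies next to PSMB9 but was measured at a far lower level. Its rounded estimated counts were 6, 9 and 4 in Control and 31, 38 and 19 in BRG1 samples. Normalised, these were 7.31, 10.6 and 3.03 against 22.5, 31.6 and 28.4. The groups did not overlap, but the values rest on few reads. Whether the transcript index held alternative MHC haplotype copies, over which reads of PSMB8 could be shared out, is not given in the sources used here, so its level may be understated. The same question is open for PSMB9, TAP1, TAP2, HLA-DOB, HLA-DMA and HLA-DMB, which lie in the same region of chromosome 6. The log2 fold change of 2.02 had an SE of 0.69 and adjusted p-values of 0.029 by DESeq2 and 0.047 by edgeR. Under the replicate block these were 0.077 by DESeq2 and 0.035 by edgeR. The DESeq2 call was also lost on leaving out any sample other than Control 2, with adjusted p-values from 0.095 (without Control 1) and 0.099 (without BRG1 3) through 0.126 (without BRG1 1) and 0.175 (without Control 3) to 0.281 (without BRG1 2).

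PSMB10 (chromosome 16, 67934506 to 67936864) encodes the induced counterpart of the trypsin-like subunit PSMB7. It was at 1117, 1190.2 and 1267 normalised counts in Control and at 1532, 1486 and 1540.3 in BRG1 samples. The gap between the groups was small but wider than the range of either. The fold was 1.27 (log2 fold change 0.35, SE 0.13, DESeq2 adjusted p 0.049). It was not called by edgeR (adjusted p 0.145), was called by edgeR with the replicate block (adjusted p 0.041), and lost the DESeq2 call without any of the 6 samples (adjusted p 0.085 to 0.305). Exons of another annotated gene cover 56.1% of its canonical transcript, and reads of both cannot be fully told apart in unstranded libraries.

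The PA28 genes lie close together on chromosome 14 and were the most abundant of the 5. PSME1 (24136163 to 24138967) was at 6012, 5354 and 5387 normalised counts in Control and at 11165, 11147 and 9812 in BRG1 samples. Every BRG1 sample was well above every Control sample, with a fold of 1.92 (log2 fold change 0.94, SE 0.13, DESeq2 adjusted p 2.6e-11, edgeR adjusted p 0.0012). PSME2 (24143362 to 24147570) was at 8660.1, 10824 and 10058 in Control and at 12770, 16238.5 and 16634.5 in BRG1 samples. Sample 1 was the lowest of each group. The fold was 1.54 (log2 fold change 0.63, SE 0.17, DESeq2 adjusted p 0.0033, edgeR adjusted p 0.033), and the DESeq2 adjusted p rose to 0.056 without BRG1 2 and to 0.063 without Control 1.

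**Figure D1:**
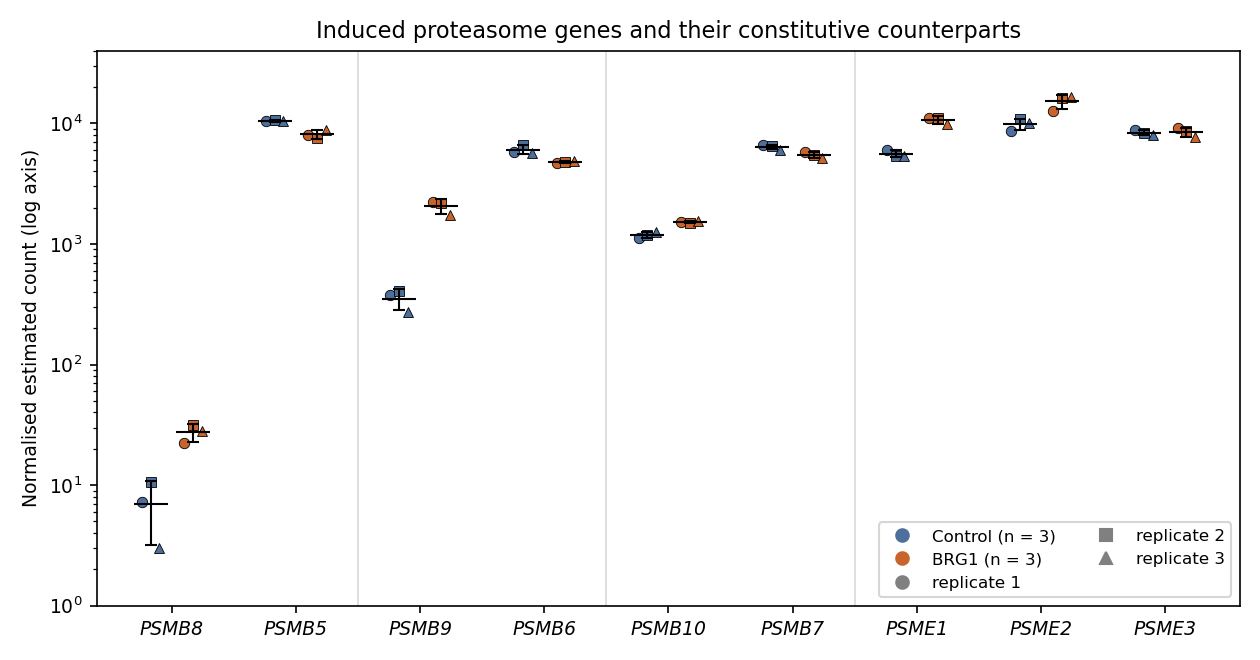
Normalised estimated counts (y, log axis) of the induced PSMB genes beside their constitutive counterparts, and of PSME1 and PSME2 beside the related PSME3 (x). The 3 Control (blue) and 3 BRG1 (orange) samples are shown. Symbols mark replicate numbers, and bars give the mean ± SD. PSMB9 rises from 273 to 403 in Control to 1734 to 2244 in BRG1, PSMB8 stays under 32 in both groups, and PSMB5 and PSMB6 lie lower in BRG1.

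The constitutive cutting subunits were then read. PSMB5 was at 10375, 10619 and 10399 normalised counts in Control and at 7945, 7499 and 8861 in BRG1 samples. Its Control values were tight and all above the BRG1 values. It was called lower by DESeq2, with a log2 fold change of -0.37 (SE 0.12, DESeq2 adjusted p 0.027), and not by edgeR (adjusted p 0.067, or 0.023 with the replicate block). The DESeq2 call was lost without any sample but BRG1 3 (adjusted p 0.127 to 0.206). PSMB6 was at 5797, 6654 and 5687 in Control and at 4703, 4753 and 4840.3 in BRG1 samples, again without overlap (log2 fold change -0.34, SE 0.13, DESeq2 adjusted p 0.053). It passed with the replicate block, with adjusted p-values of 0.0076 by DESeq2 and 0.029 by edgeR. PSMB7 was at 6566, 6473 and 6057 in Control and at 5781, 5474 and 5172 in BRG1 samples, with a log2 fold change of -0.22 (SE 0.12) that did not pass (DESeq2 adjusted p 0.297).

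None of the other constitutive beta subunits was called. PSMB3 had a log2 fold change of -0.26 (SE 0.16, DESeq2 adjusted p 0.376), and PSMB2 had the value nearest 0 of the ring (-0.08, SE 0.19), with 5233, 4532 and 3835 normalised counts in Control and overlapping values of 4967, 4229.7 and 3700.03 in BRG1 samples. All 7 measured constitutive beta genes had a log2 fold change below 0, with a median of -0.22, and all 7 were below 0 within each of the 3 replicate numbers. The direction was kept by all 7 with TMM factors, edgeR and voom, whereas PSMB2 was above 0 without BRG1 3 (0.02) or without Control 1 (0.04). 1 of the 7 was called lower by DESeq2 and 0 by edgeR, and 2 by either tool with the replicate block. Over all genes tested, 1.84% were called lower by DESeq2 and 1.02% by edgeR, and 6.61% and 5.95% with the block. In 4 of the 7, PSMB4, PSMB5, PSMB6 and PSMB7, the groups did not overlap, against 9.92% of all genes tested for lower values. PSMB11, the thymus-specific beta subunit, had at most 1 count in any sample.

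Alpha ring genes did not move as a group. 4 of the 7 measured were above 0, none was called, and the median log2 fold change was 0.06. The highest was PSMA3, with 3244, 3084 and 2699.9 normalised counts in Control and 3761, 3781 and 3004.5 in BRG1 samples (log2 fold change 0.23, SE 0.16, DESeq2 adjusted p 0.515). The lowest was PSMA2, with 4863, 5684 and 5616 against 4461, 5133 and 4873 (log2 fold change -0.16, SE 0.14, DESeq2 adjusted p 0.622). Values of both genes overlapped between groups, and exons of another annotated gene cover the whole canonical PSMA2 transcript. PSMA8, the testis-specific alpha subunit, had no count in any sample.

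In the 19S cap, none of the 6 ATPase genes was called in either direction, nor was any of the 14 PSMD genes, which encode other subunits and, in PSMD5, PSMD9 and PSMD10, chaperones of cap assembly. The ATPases lay between PSMC3, at 5371, 6536 and 5262 normalised counts in Control and 4736, 5245 and 5327 in BRG1 samples (log2 fold change -0.17, SE 0.15), and PSMC2, at 4378, 4415 and 3938 against 4799, 4559 and 3812 (log2 fold change 0.05, SE 0.15). The non-ATPases lay between PSMD1, the scaffold subunit, and PSMD6. PSMD1 was at 7084, 7394 and 7207 in Control and at 6405, 6777 and 5418 in BRG1 samples, which did not overlap (log2 fold change -0.22, SE 0.14, DESeq2 adjusted p 0.413). PSMD6 was at 3768, 3369 and 3109 against 4336, 3827 and 3004.5 (log2 fold change 0.13, SE 0.19). Both classes were centred slightly below 0, with medians of -0.08 and -0.07.

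The remaining activator, inhibitor and chaperone genes were also not called. PSME3, which forms the nuclear PA28 gamma activator and is related to PSME1 and PSME2, was at 8786, 8319.6 and 7960.3 normalised counts in Control and at 9079, 8582 and 7652 in BRG1 samples (log2 fold change 0.01, SE 0.13). The activator PSME4 had a log2 fold change of 0.09 (SE 0.24) and PSMF1, which encodes the inhibitor PI31, 0.15 (SE 0.17). PSMF1 was at 4799.7, 5061 and 4362 in Control and at 6019, 5264 and 4463 in BRG1 samples, and the groups overlapped. The 4 assembly chaperones were below 0, from PSMG3, at 1405, 1687 and 1333 against 1161, 1194 and 1437 (log2 fold change -0.22, SE 0.18), to PSMG2, at 2072, 1745 and 1700.5 against 1967, 1977 and 1543 (log2 fold change -0.01, SE 0.18).

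Across the 41 measured members outside the immunoproteasome list, DESeq2 called 0 higher and 1 lower, and edgeR called none. At an unadjusted DESeq2 p under 0.05, 0 were higher and 2 lower. For lower calls this is near the background of 1.84% of all genes, while none of the 41 was called higher, against 11.0%. The median log2 fold change was -0.09, 10 of the 41 were above 0, and 7 were without overlap on the lower side, against 9.92% of genes tested.

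**Figure D2:**
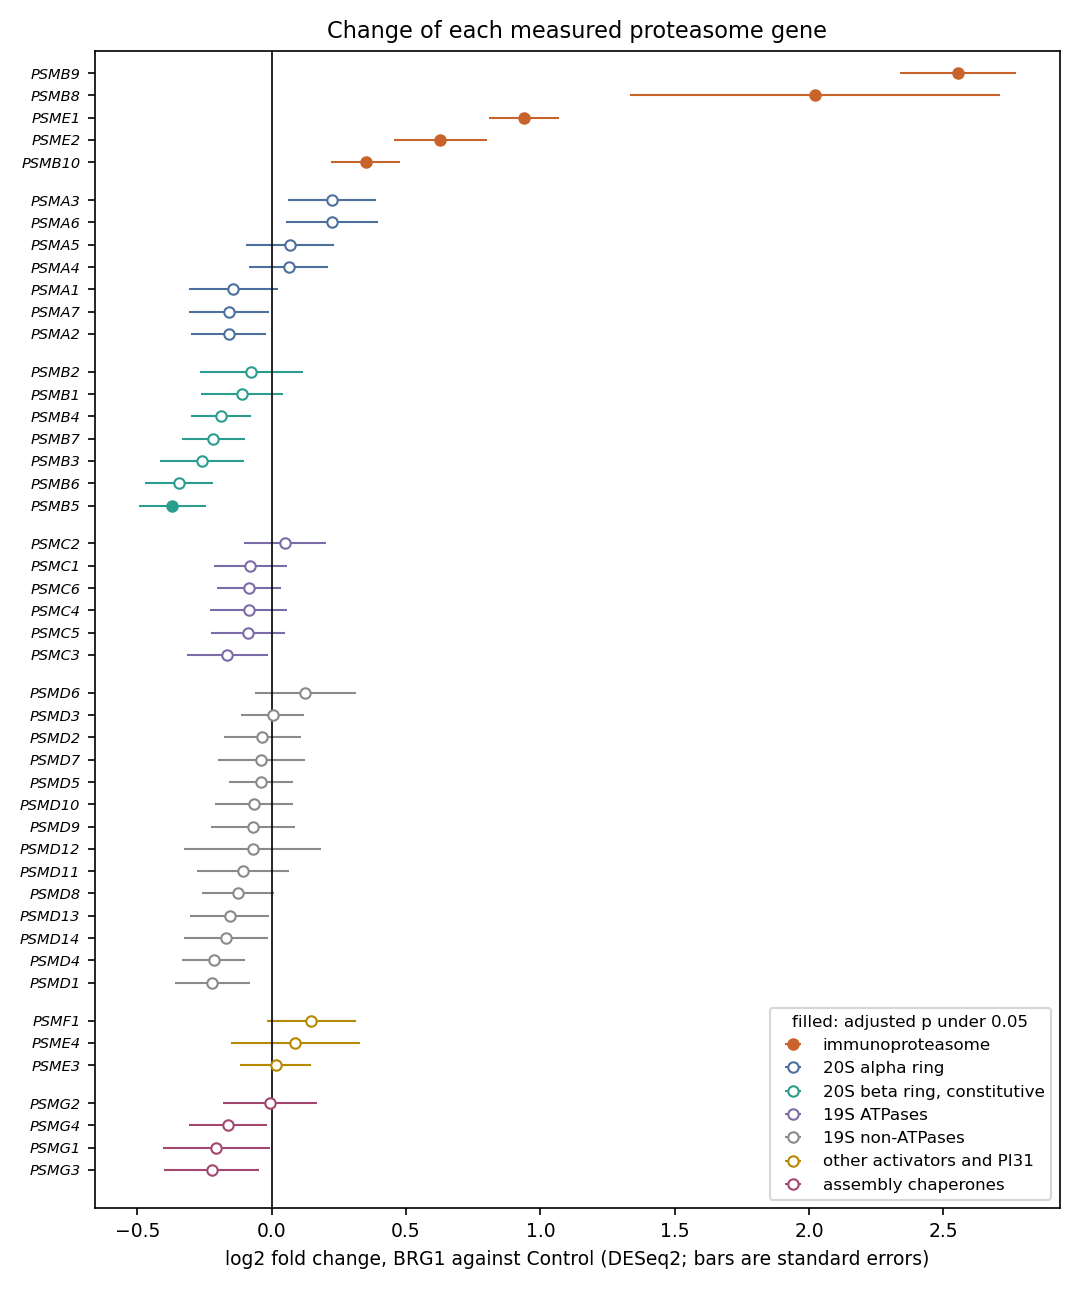
Log2 fold change of BRG1 against Control (x) for the 46 measured members (y), grouped by role and coloured by class; points are DESeq2 estimates, bars are standard errors, and filled points had an adjusted p under 0.05. The 5 immunoproteasome genes lie between 0.35 and 2.55, and the other 41 between -0.37 and 0.23.

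How far each induced gene changed relative to a constitutive gene was measured as a ratio within each sample, which needs no size factor. For the PSMB genes this was the gene of the subunit that theirs can replace. For PSME1 and PSME2 it was the related activator gene PSME3, with no replacement implied. For PSMB9 over PSMB6 the log2 ratio of estimated counts was -3.93, -4.04 and -4.38 in Control and -1.07, -1.11 and -1.48 in BRG1 samples, a 7.45-fold higher ratio. The change was nearly equal within replicates 1, 2 and 3, at 2.86, 2.93 and 2.90. For PSMB8 over PSMB5 the log2 ratio was -10.3, -9.83 and -11.7 in Control and -8.43, -7.87 and -8.26 in BRG1 samples (5.42-fold), with an SD of 0.99 in Control and 0.28 in BRG1 samples.

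The ratio of PSMB10 to PSMB7 changed less, from a mean log2 ratio of -2.42 ± 0.15 to -1.85 ± 0.09 (SD, n = 3 each; 1.49-fold), and in this ratio too every BRG1 sample was above every Control sample. For the PA28 genes, the log2 ratio of PSME1 to PSME3 went from -0.58 ± 0.05 to 0.34 ± 0.04 (1.90-fold), and that of PSME2 to PSME3 from 0.23 ± 0.22 to 0.84 ± 0.32 (1.53-fold; SD, n = 3 each). In the exact two-sided permutation test over samples, all 5 ratios had p = 0.1, which is the smallest that 3 samples against 3 can give, and the Benjamini-Hochberg adjusted p over the 5 was 0.1. Sign flips within the 3 pairs gave an exact p of 0.25, again the smallest possible.

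**Figure D3:**
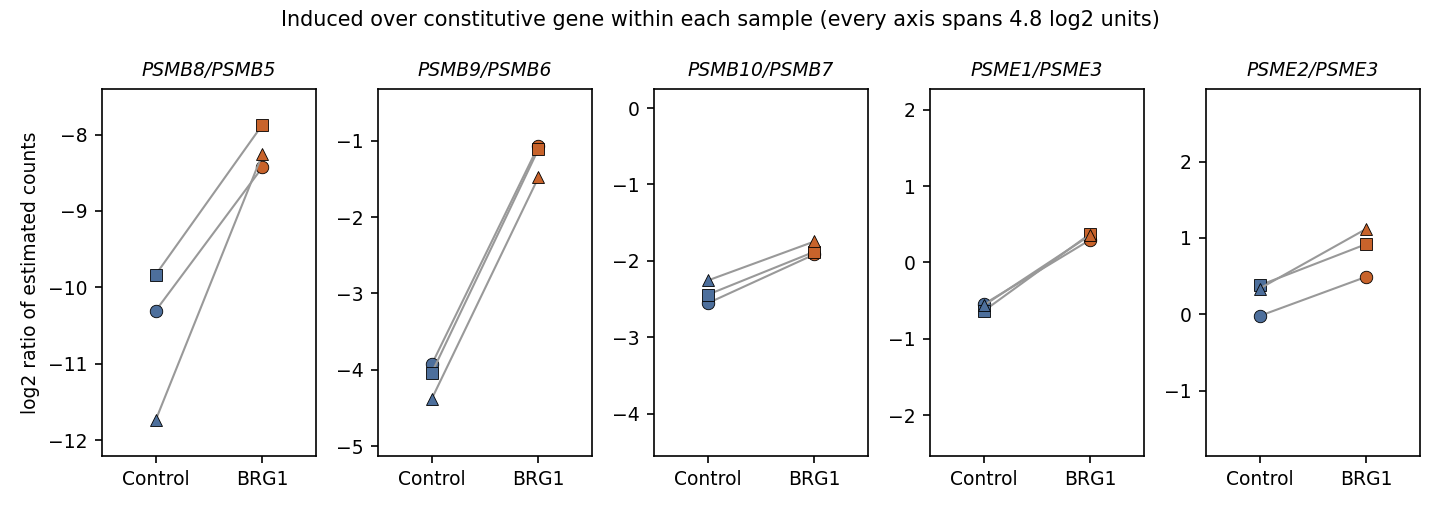
Log2 ratio of the estimated counts of an induced gene to its constitutive counterpart, or to the related PSME3 for PSME1 and PSME2 (y), in Control and BRG1 samples (x). Lines join samples of the same replicate number, symbols are as in the plot of counts by sample, and every axis spans the same range. All 15 lines rise, by 2.86 to 2.93 for PSMB9/PSMB6 and by 0.51 to 0.64 for PSMB10/PSMB7.

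To compare levels between the genes of a pair, estimated counts were divided by the length of the canonical transcript (GENCODE release 44) and expressed as the induced gene's share of the pair. PSMB9 made up 4.49% ± 0.67 of PSMB9 and PSMB6 together in Control and 25.9% ± 2.95 of it with BRG1 (SD, n = 3 each). PSMB10 made up 15.9% ± 1.40 and 21.9% ± 1.07 of its pair with PSMB7. PSMB8 made up 0.063% ± 0.037 and 0.317% ± 0.065 of its pair with PSMB5, a share that rests on 4 to 38 estimated counts. The open question on MHC haplotype copies applies to the PSMB8 and PSMB9 shares. On this per-length scale the constitutive transcript remained the larger in all 3 pairs and all 6 samples. PSME1 made up 68.8% ± 0.70 and 80.7% ± 0.45 of its pair with PSME3, and PSME2 82.4% ± 2.26 and 87.7% ± 2.46, where the longer PSME3 transcript lowers its own per-length level. These are shares of transcripts, and protein was not measured here.

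Genes that work with the proteasome but fall outside the symbol rule were read from a list of 16. It held the 19S subunits ADRM1 and SHFM1, the deubiquitinases USP14 and UCHL5, shuttle factors and the segregase VCP. None was called higher and 1, TXNL1, a thioredoxin-like protein of the 19S cap, was called lower, with 4501, 4244 and 4191 normalised counts in Control and 3562, 3505 and 3133 in BRG1 samples (log2 fold change -0.34, SE 0.12, DESeq2 adjusted p 0.047). edgeR called none (TXNL1 adjusted p 0.068, or 0.018 with the replicate block), and with the block DESeq2 called 1 higher and 2 lower. Over all genes tested 1.84% were called lower, and 13.4% higher and 6.61% lower with the block. The list's median was 0.01. POMP, the chaperone needed for maturation of the core and for immunoproteasome assembly, was at 4656, 4253 and 3385 in Control and at 4811, 4777 and 3133 in BRG1 samples (log2 fold change 0.05, SE 0.23).

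Regulators known to act on proteasome genes moved in part. Of 16 tested, DESeq2 called 5 higher and 0 lower, edgeR called 3 higher and DESeq2 with the replicate block called 9, against 11.0%, 9.57% and 13.4% of all genes tested, and the list's median was 0.40. IRF9, the DNA-binding subunit of the factor that recognises the ISRE, was at 1513, 1576 and 1560.4 normalised counts in Control and at 6484, 7583 and 6321 in BRG1 samples. That is the largest change called in the list, a log2 fold change of 2.13 (SE 0.14, DESeq2 adjusted p 1.1e-52). STAT2, another subunit of that factor, rose with a log2 fold change of 1.33 (SE 0.18, DESeq2 adjusted p 2.8e-12). NLRC5, the activator of class I genes, was at 861, 770.4 and 756 in Control and at 3356, 2534 and 1840.3 in BRG1 samples (log2 fold change 1.70, SE 0.24, DESeq2 adjusted p 8.0e-11). IRF2 (0.51, DESeq2 adjusted p 0.026) and NFYB, a subunit of the factor that binds CCAAT (0.44, DESeq2 adjusted p 0.043), were called by DESeq2. By edgeR their adjusted p-values were 0.108 and 0.122, or 0.025 and 0.026 with the replicate block.

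IRF1, an interferon-induced activator of PSMB9 and TAP1, was at 6400.4, 5760 and 570.1 normalised counts in Control and at 14244, 16698 and 2233 in BRG1 samples. Sample 3 of each group was far below the others, and within each replicate number BRG1 was higher. Without the block its log2 fold change of 1.38 had an SE of 1.13 and a DESeq2 adjusted p of 0.586. With the block the adjusted p was 1.1e-21 by DESeq2 and 0.00055 by edgeR. NFE2L1, which raises transcription of constitutive proteasome genes when proteasome activity is short, was at 9516.5, 8310.2 and 9575 in Control and at 9835, 9213 and 10899 in BRG1 samples (log2 fold change 0.13, SE 0.14, DESeq2 adjusted p 0.730). NFE2L2, the oxidative stress factor that binds antioxidant response elements, was at 5618, 5638 and 2916 against 6703, 8586 and 3954 (log2 fold change 0.44, SE 0.34, DESeq2 adjusted p 0.554). Sample 3 was the lowest of both groups here too, and it passed only with the block (adjusted p 0.0010 by DESeq2 and 0.023 by edgeR).

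Peptides cut by the proteasome are carried and loaded onto class I molecules by a further set of genes, and 12 of 15 were called higher and 0 lower, by both DESeq2 and edgeR (11.0% and 9.57% of all genes tested were higher), with a median log2 fold change of 1.30. TAP1, which forms the peptide transporter with TAP2, was at 5879, 7386 and 5569 normalised counts in Control and at 10891, 14511.5 and 12564 in BRG1 samples (log2 fold change 1.01, SE 0.19, DESeq2 adjusted p 1.2e-06). The called genes ran from TAPBP, which encodes the loading chaperone tapasin, at 0.96 (SE 0.14), to the class I heavy chain gene HLA-F at 2.89 (SE 0.24). B2M, the class I light chain, was between them at 2.02 (SE 0.20). The 3 that were not called, CALR, PDIA3 and CANX, encode general folding factors of the endoplasmic reticulum. Reads of the class I heavy chain genes can be shared among these near-identical genes, so that their values are uncertain.

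The interferons themselves were read because they are known inducers of the immunoproteasome. IFNG had at most 7 counts in any sample and no difference that could be detected. IFNL1 had 0 counts in each Control sample and 10, 7 and 2 in BRG1 samples (DESeq2 adjusted p 0.102). IFNL3 had 1, 0 and 0 against 4, 7 and 2 (DESeq2 adjusted p 0.335). Both were too low to be called, and IFNL2 was at the floor. IFNB1 had 0, 1 and 0 counts in Control and 109, 74 and 21 in BRG1 samples and was the only gene of 11 tested from the list of interferons, receptors and kinases that was called, by DESeq2 (adjusted p 6.8e-07) and by edgeR (adjusted p 0.0014). With the replicate block DESeq2 called 3 of that list higher, against 13.4% of all genes tested. These were IFNGR1 (adjusted p 0.017) and JAK1 (adjusted p 0.0045) beside IFNB1.

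Whether neighbouring genes moved with the immunoproteasome genes was described last. Each locus had 6 listed neighbours, and over all genes tested DESeq2 called 11.0% higher and 1.84% lower. Calls among so few genes show little at any of the loci. TAP1, TAP2 and IRF9 were already counted in the class I and regulator lists above. Around PSMB8 and PSMB9 on chromosome 6, TAP1 (start site 0.5 kb from that of PSMB9), TAP2 (15.5 kb) and HLA-DOB (37.2 kb) were called higher, while HLA-DMB, HLA-DMA and BRD2, on the far side at 86.8 to 114.4 kb, were not. TAP2 was at 3935, 3545 and 3678 normalised counts in Control and at 8557, 7895 and 8642 in BRG1 samples (log2 fold change 1.17, SE 0.12). HLA-DOB, an MHC class II gene, was low, with 3, 3 and 5 estimated counts in Control and 36, 32 and 9 in BRG1 samples (log2 fold change 2.61, SE 0.78, DESeq2 adjusted p 0.0083, and 0.056 with the replicate block). Exons of the same other annotated gene cover 45.2% of the canonical transcript of HLA-DOB and 35.8% of that of TAP2. Those of a different gene cover 21.5% of that of TAP1. Reads of overlapping genes cannot be fully told apart in unstranded libraries.

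Around PSME1 and PSME2 on chromosome 14, 2 of 6 neighbours were called higher, against 11.0% of all genes tested. They were IRF9 (14.7 kb from PSME2) and REC8 (25.5 kb), a meiotic cohesin gene. REC8 was at 147, 150.1 and 126 normalised counts in Control and 585, 574 and 567 in BRG1 samples (log2 fold change 2.04, SE 0.18). Exons of other annotated genes cover 93.1% of the canonical transcript of IRF9 and 99.3% of that of RNF31, part of it by PSME2. EMC9, which lies between PSME1 and PSME2, had a log2 fold change of -0.31 (SE 0.27, DESeq2 adjusted p 0.627), and RNF31, whose start site is 0.9 kb from that of PSME2, one of 0.35 (SE 0.19, DESeq2 adjusted p 0.285, and 0.039 with the block). FITM1 and DCAF11 were not called. Around PSMB10 on chromosome 16, 0 of 6 neighbours were called higher and 1 lower. Over all genes tested these shares were 11.0% and 1.84%, and here too the calls among so few genes show little. THAP11, 94.5 kb away, was called lower by DESeq2 (log2 fold change -0.45, SE 0.15, adjusted p 0.022) and not by edgeR (adjusted p 0.061, or 0.025 with the block). The nearest, CTRL, at 5.0 kb, had at most 28.8 normalised counts in any sample, and exons of other annotated genes cover its whole canonical transcript.

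**Figure D4:**
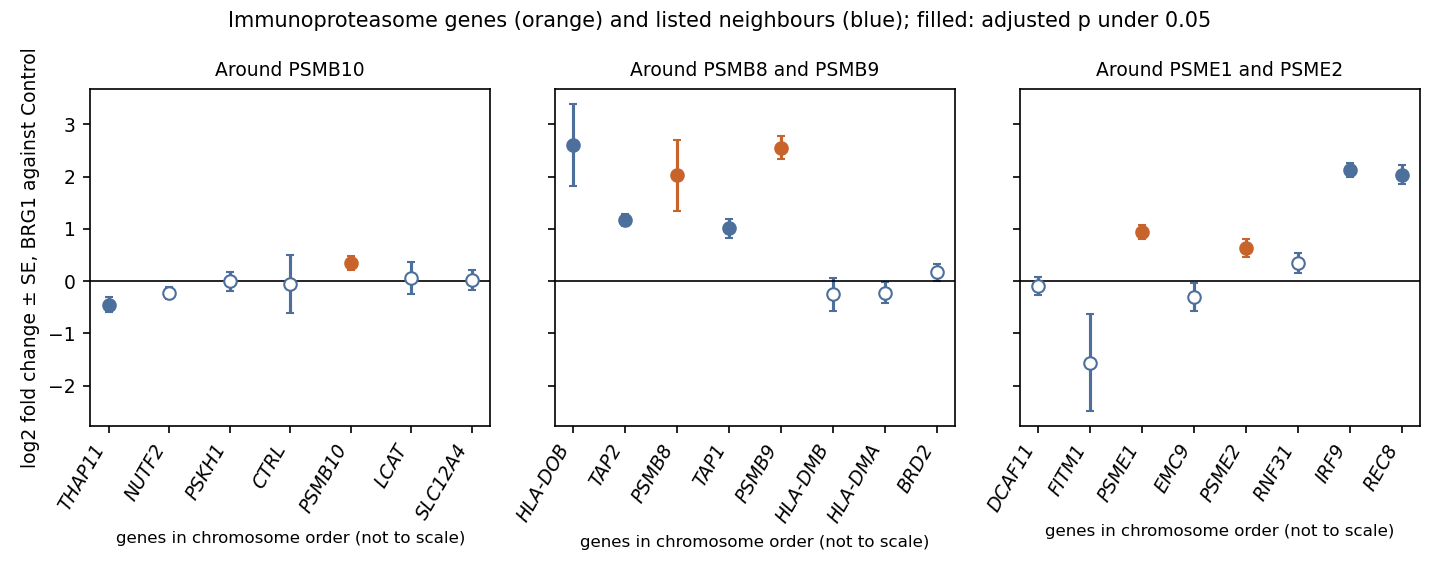
Log2 fold change of BRG1 against Control (y; points are DESeq2 estimates and bars ± SE) for the immunoproteasome genes (orange) and listed neighbours (blue), in chromosome order and not to scale (x), with filled points for an adjusted p under 0.05. TAP1 (1.01) and TAP2 (1.17) lie beside PSMB8 and PSMB9, and EMC9 (-0.31) lies between PSME1 and PSME2. No neighbour of PSMB10 is called higher, against 11.0% of all genes tested.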

How the data were processed

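RNA-seq of 6 COV434 samples was used. Per the labels, poly(A) libraries from 500 ng of RNA were unstranded and were sequenced as paired reads of 78 bp. The authors aligned reads with STAR 2.5.3a to hg38, quantified transcripts with Salmon 0.8.2 against GENCODE release 24 and summed them to genes with tximport (lengthScaledTPM). The deposited values are these estimated counts per gene symbol, not divided by library size. Salmon's model shares out reads that fit several genes, so genes with near-identical copies or overlapping exons are uncertain.

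Estimated counts, rounded, were tested over the whole table, BRG1 against Control, with the DESeq2 Wald test (version 1.42.0, R 4.3.3, no covariate, Benjamini-Hochberg adjusted p under 0.05). Of 19899 genes, 18096 had a count and 16002 had an adjusted p. The use of DESeq2 follows the study's methods. Alternatives were the quasi-likelihood test of edgeR 4.0.16 (14246 genes), limma-voom 3.58.1, TMM size factors, a filter of at least 10 counts in at least 3 samples, an adjusted p under 0.01, the replicate number as a block, and each of the 6 samples left out. Each fit that was not a leave-one-out was tested on simulated data. The simulated counts held no replicate effect, so they cannot decide between fits with and without the block. Values from edgeR stand beside DESeq2 calls of members and beside those of other named genes that edgeR did not call.

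Ratios of estimated counts used 0.5 added to both genes (1 as an alternative) and an exact permutation test over samples. A gene with 3 counts or fewer in every sample was treated as at the floor. Totals of 29699759 to 63613736 estimated counts per sample set the counting error.

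The labels give both groups replicate numbers 1 to 3 and call the samples biological replicates. Deviations from the group means correlated at 0.522, 0.524 and 0.614 between same-numbered samples over 11686 genes with a mean of at least 100 counts, and at -0.523 to 0.073 otherwise, so the numbers were taken to pair the samples, and values with the block are given where they change the call of a gene named with its p. The correlations come from the data and not from the design.

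All rows matching the symbol rule were members. Named with values in every sample were the immunoproteasome genes, the constitutive genes set beside them, and members called or without counts. So were the lowest and highest member of each role class, and set genes of the partner, regulator, class I and neighbour lists with the called members of largest and smallest change. The members and the lists were chosen with earlier results of these data known, so they are not independent of them. A regulator gene of these lists is not reported here. Gene positions came from GENCODE release 44 and promoter windows from RefSeq, both on GRCh38, the authors' build. PSMA7, PSMB1, PSMB6, PSMB7, PSMD4 and PSMG3 had no window.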

Additional observations from a re-analysis of the deposited data

How the results depend on the processing

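No member that was called changed direction under any alternative. All 5 ratios kept their direction with a pseudocount of 1, with the replicate block and without any sample. The number of immunoproteasome genes called higher was 5 with the low-count filter and with edgeR under the replicate block, 4 with edgeR, voom, TMM size factors and the DESeq2 block, 3 at an adjusted p under 0.01, and between 2 and 4 with a sample left out, with 2 without BRG1 2 or Control 1. PSMB9 and PSME1 were called in every fit. Of all genes, 1764 were called higher in the main fit. This number was 1589 with the low-count filter, 1740 with TMM size factors, 1326 with voom and 1364 with edgeR. It was 2095 and 2040 with the replicate block by DESeq2 and edgeR, and 1447 at an adjusted p under 0.01. With a sample left out it was between 1350 and 1974. Other members called lower numbered 2 with TMM size factors, the low-count filter and the replicate block by DESeq2 or edgeR (PSMB5 and PSMB6), 0 with edgeR, voom and an adjusted p under 0.01, and between 0 and 1 with a sample left out, where only the fit without BRG1 3 kept PSMB5. The block changed the calls of PSMB8 and PSMB6 by DESeq2 and of PSMB10, PSMB5 and PSMB6 by edgeR, and no other call of a member. Among all genes, 294 were called lower, against 146 with edgeR, 169 with voom, 130 at an adjusted p under 0.01, 1035 and 870 with the replicate block by DESeq2 and edgeR, and between 116 and 596 with a sample left out (116 without BRG1 2, 596 without BRG1 3). The cause of these moves was not tested. Log2 fold changes of 12 uncalled members crossed 0 under some alternative, PSMB2 and PSME3 among them. Depth limits PSMB8, at 4 to 38 estimated counts, the most.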

Other observations

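The letters GAAAGCGAAA, shared by the promoter windows of PSMB8, PSMB10, PSME1 and PSME2, were looked up in all other windows after that match had been seen. They occurred near the start of 29 symbols that are not proteasome members, of which 21 were tested. DESeq2 called 6 of these 21 higher with BRG1 (28.6%) and 0 lower, and edgeR also called 6 higher. Those called by DESeq2 were DDO, FAM111A, IL12A, PARP14, TAP1 and TAP2. TAP1 and TAP2 were already counted above among the class I genes and the neighbours. RNF31, a holder that was not called, has its annotated start at 24146683, close to the PSME2 match at 24146629 to 24146638. The 21 genes are thus not fully independent of those above. Of all 11900 tested genes with a window outside the proteasome list, 10.7% were called higher by DESeq2, and of 491 with the looser ISRE core, 121 were (24.6%). PARP14, an ADP-ribosyltransferase, was at 1069.6, 705 and 679.9 normalised counts in Control and at 12236, 12241 and 9325 in BRG1 samples. FAM111A, a protease gene, was at 704, 765 and 811 against 1071, 1145 and 1073. Other holders were not called, among them MYD88, an adaptor of innate immune receptors, at 41.4, 18.8 and 16.7 against 36.99, 20.8 and 19.4. No test was made of these shares.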
